A study of Mus musculus with 6 samples.

Results

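The neurotrophin system of the mouse brain was followed here through 6 genes: the ligands Bdnf and Ntf3, the receptor kinases Ntrk2 and Ntrk3, the neurotrophin receptor Ngfr and the sorting receptor Sort1. Every probe carrying one of these gene names in the array files was taken. This gave 13 of 55681 probes, for 6 of 35010 genes. All mice were BALB/c males, 8 weeks old, given a single dose into the nose and sampled 24 h later. The olfactory bulb, the hippocampus and the cerebral cortex were each taken from mice given saline (0 mg/kg) and from mice given PAMAM dendrimers at 0.15 mg/kg, which makes 6 groups. PAMAM dendrimers are branched polyamidoamine polymers studied as carriers of drugs and nucleic acids. Each group is a single array of RNA pooled from 6 experiments, so the difference between any pair of groups has no replicate check and no p-value; only the mean over the 3 regions was put to a test. In such bulk tissue, fewer cells of a type and less RNA per cell cannot be told apart.

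Neurotrophins are secreted as longer precursors that proteases cut to the mature factor. BDNF, the product of Bdnf, acts through TrkB, the product of Ntrk2, and supports neuron survival and synaptic plasticity, and its gene is switched on by neuronal activity. Neurotrophin-3, the product of Ntf3, acts mainly through TrkC, the product of Ntrk3. Both Trk genes also make truncated receptors that bind the ligand but lack the kinase, and truncated TrkB is known as the main form in astrocytes. Ngfr encodes p75NTR, which binds all neurotrophins and, together with sortilin (Sort1), their precursors; in the adult forebrain it is known from cholinergic neurons and, in the olfactory bulb, from ensheathing glia.

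The 13 probes are 60-base oligonucleotides, and which transcript form a probe reads decides what its value means. Sequences are shown, 5′ to 3′ and with positions in mouse build mm9, for probes that bear on the receptor form read (Ntrk3 and Ntrk2) or on the position along the transcript (Sort1). Probe numbers are names only. Ntrk3 has 2 probes for the kinase form (variant 1, NM_008746), at chr7:85337455-85337514 and chr7:85392044-85392103, minus strand.
Ntrk3 probe 1: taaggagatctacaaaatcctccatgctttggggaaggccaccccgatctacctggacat
Ntrk3 probe 4: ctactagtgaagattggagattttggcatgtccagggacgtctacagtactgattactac
The truncated form (variant 2, NM_182809) has probe 2 at chr7:85447515-85447574 and probe 3 at chr7:85445908-85445967. Capitals in probe 2 mark a stop codon that ends the reading frame open over the rest of that probe.
Ntrk3 probe 2: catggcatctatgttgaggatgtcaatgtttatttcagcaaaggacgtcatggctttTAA
Ntrk2 probe 1 lies at chr13:58979563-58979622, plus strand, and is listed for both the kinase and the truncated variants, so it reads them together.
Ntrk2 probe 1: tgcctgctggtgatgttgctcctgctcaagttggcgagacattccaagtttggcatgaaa
Sort1 probe 3 joins separate stretches of genome between chr3:108157150-108159198, plus strand, and so reads spliced RNA.
Sort1 probe 3: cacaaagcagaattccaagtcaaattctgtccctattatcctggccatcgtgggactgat
Ntrk2 probe 2, at chr13:59230936-59230995, is listed for the kinase variant (NM_001025074) and probe 3, at chr13:59038046-59038105, for the truncated variant (NM_008745). Bdnf, Ntf3 and Ngfr have 1 probe each, at chr2:109566961-109567020 (plus), chr6:126051431-126051490 (minus) and chr11:95430211-95430270 (minus). Sort1 probes 1 and 2 lie at chr3:108164349-108164408 and chr3:108158404-108158463. Bdnf transcripts are known to end at a near or a far polyadenylation site, and the files do not say whether the Bdnf probe reads both. No 2 probes of different members shared a run of more than 9 bases.

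A level is log2 of the processed signal relative to the array's 75th percentile, so a level of 0 is at that percentile. Levels of different probes cannot be set against each other, and only differences within a probe are compared. Of 59305 spots, 34134 to 39057 per array were well above background and 0 were saturated. The error given with a difference is the SD expected from spot-to-spot noise. It comes from the probe's own spots where it has 10 (Ntrk2 probe 2 and Ngfr), and otherwise from repeated probes of like brightness. It leaves out dissection, animals and labelling. The region labels fit their markers: olfactory bulb neuron markers had a mean level of 1.53 and 1.54 on the olfactory bulb arrays and -2.78 to -2.44 elsewhere, and hippocampal and cortical neuron markers were highest in their own region.

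The arrays of a pair also differed in ways that touch the results below. Choroid plexus markers were higher with PAMAM for 12 of 12 measured genes in the hippocampus (median 0.85; summed signal 173 to 280 times the 75th percentile) and 8 of 8 in the cortex (median 1.22; 5.08 to 24.4), against 3 of 8 in the olfactory bulb. Meningeal markers were higher for 9 of 9 in the cortex (median 0.89), and red blood cell markers for 5 of 5 in the hippocampus (0.55) and 4 of 4 in the cortex (0.59). Hippocampal neuron markers were lower for 7 of 9 in the hippocampus (-0.23) and higher for 6 of 7 in the cortex (0.52). Some accessions have probes at least 1000 bases apart on the genome, a distance that counts introns. In these, the probe nearest the 3′ end exceeded the farthest in its PAMAM minus saline difference by a median of 0.17 in the cortex (75.5% of 2243 accessions above 0). The median was 0.02 in the hippocampus (54.3% of 2317) and -0.03 in the olfactory bulb (42.8% of 2426). In level, the median 3′ minus 5′ gap was 1.71 on the cortex PAMAM array and 1.51 to 1.55 on the other 5.

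Within each region, PAMAM was compared with saline to see what the dose changed. Bdnf was the member with the largest difference in the hippocampus and the cortex. Its level was -0.82 with saline and -0.67 with PAMAM in the olfactory bulb. In the hippocampus it was 0.71 with saline and 1.26 with PAMAM, and in the cortex 0.30 and 1.28. The olfactory bulb arrays were thus the lowest, the saline arrays of the other regions stood between, and the hippocampus and cortex PAMAM arrays were level with each other (a gap of 0.01, spot noise 0.08).

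The olfactory bulb difference for Bdnf was 0.15 (spot noise SD 0.10). It was 0.56 (0.08), or 1.47-fold, in the hippocampus and 0.97 (0.08), or 1.97-fold, in the cortex. Among all measured genes, 3234 of 23288 had a higher difference than Bdnf in the olfactory bulb, 591 of 22326 in the hippocampus and 83 of 21601 in the cortex. The central 95% of all genes ran from -0.47 to 0.38, from -0.40 to 0.57 and from -0.61 to 0.52 in these regions. Over the brighter genes, those above the array's median detected probe on at least 1 array of the pair, to which Bdnf belongs, it ran from -0.26 to 0.26, from -0.27 to 0.32 and from -0.40 to 0.41. Bdnf therefore lay outside both ranges in the cortex and inside both in the olfactory bulb, while in the hippocampus it was at the upper edge of the range of all genes and outside that of the brighter ones. The cortex difference exceeded the olfactory bulb one by 0.83 and the hippocampus one by 0.42, with spot noise of 0.13 and 0.12, and with 1 array per group these gaps cannot be tested. Of the most 3′ probes in the cortex, 97.5% had a difference under 0.45. Bdnf has 1 probe, so its ends cannot be compared, and the part of the 3′ shift, of the choroid plexus and meningeal markers and of the hippocampal neuron markers in the Bdnf difference was not tested. Markers of neurons in general differed by a median of -0.03, -0.00 and 0.07 in the olfactory bulb, hippocampus and cortex.

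Over the regions together, treatment was also fitted with region as a block (limma on 21095 genes well above background on all 6 arrays, 2 residual degrees of freedom, Benjamini-Hochberg adjustment). This fit was chosen after seeing the data and takes the 3 regions as replicates of the dose, although nothing says that they came from separate mice. The mean difference of Bdnf was 0.56 (SE 0.17; adjusted p = 0.649 by limma), positive in 3 of 3 regions. That of Ngfr was -0.23 (SE 0.07; adjusted p = 0.642 by limma), negative in 3 of 3. At an adjusted p of 0.05, limma called 0 of 5 member genes and 0% of all genes, with 1500 genes at an unadjusted p under 0.05. Ntf3 was not in this fit.

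**Figure D1:**
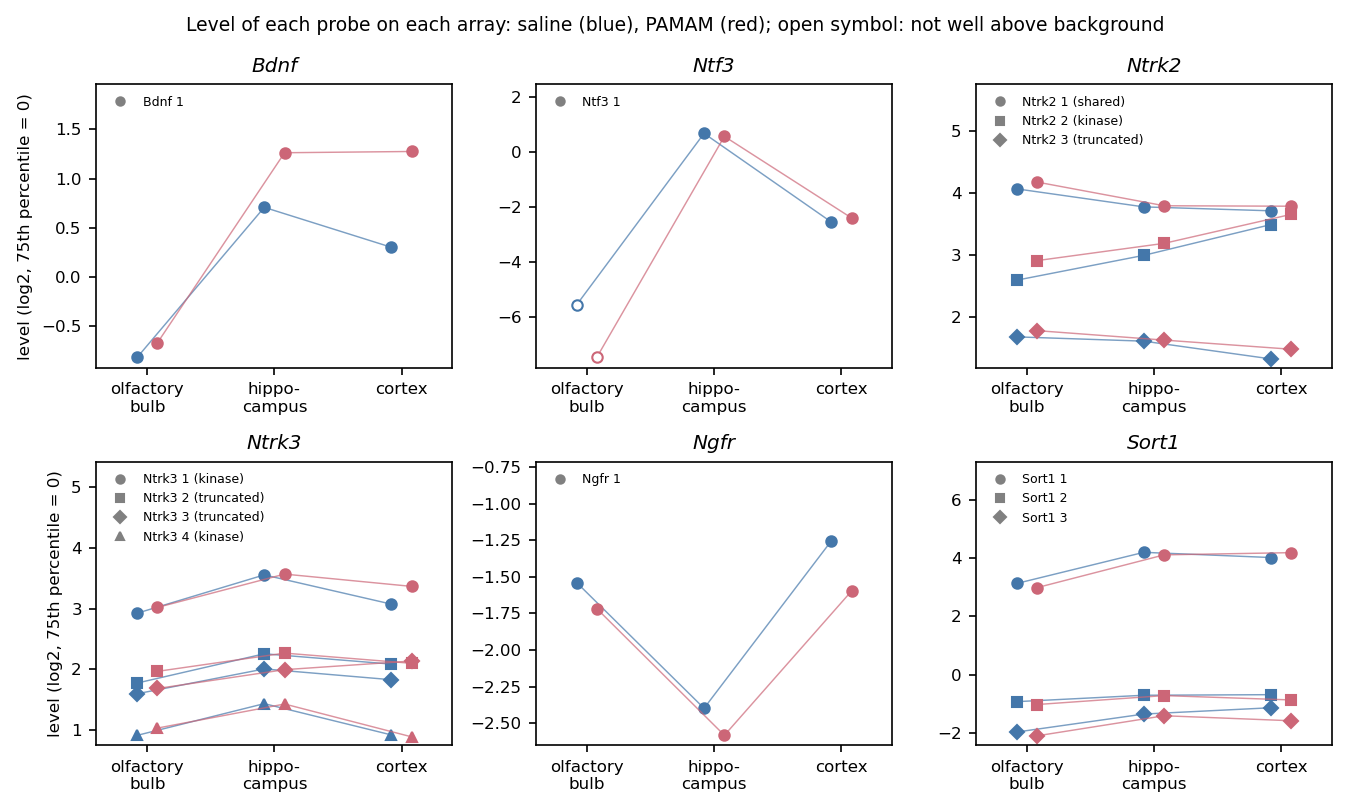
Level (log2, 75th percentile of the array = 0) of each of the 13 probes on the 6 arrays, saline in blue and PAMAM in red, 1 array per point, with open symbols for values not well above background. The Bdnf points of the hippocampus and cortex separate by treatment (0.71 and 1.26, 0.30 and 1.28), while most other probes follow the region.

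No member differed 2-fold or more between PAMAM and saline. At that threshold there were 0 of 5 measured genes in the olfactory bulb, where 0.258% of all genes passed it, 0 of 6 in the hippocampus (0.649% of all genes) and 0 of 6 in the cortex (0.768%). In the cortex Bdnf stood so near the threshold that 2 scalings moved it across, to 1.02 with the median of detected probes and 1.0 in the authors' deposited table. At 0.5 on the log2 scale, Bdnf alone was higher in the hippocampus (1 of 6 genes, against 3.29% of all genes) and in the cortex (1 of 6, against 2.75%), with 0 of 5 in the olfactory bulb (1.03%), and 0 were lower by that much in any region (2.15%, 1.3% and 4.17% of all genes in the olfactory bulb, hippocampus and cortex).

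Ntf3 depended on region far more than on treatment. Its levels were 0.66 and 0.55 in the hippocampus (saline and PAMAM) and -2.55 and -2.41 in the cortex, and the probe was not well above background on either olfactory bulb array. Between treatments it differed by -0.11 (0.09) in the hippocampus and 0.15 (0.19) in the cortex, neither beyond 2 SD of spot noise. The cortex was below the hippocampus by 3.21 on the saline arrays and 2.96 on the PAMAM arrays, which is 9.28-fold and 7.78-fold. Ntf3 is known from granule cells of the dentate gyrus, a part of the hippocampus. Against the olfactory bulb only bounds can be given, taking for the dim array either the Ntf3 signal itself or the dimmest probe detected there, whichever was brighter. The hippocampus was at least 46.2-fold higher with saline and at least 100.3-fold with PAMAM, and the cortex at least 4.98-fold and 12.9-fold.

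The ligand gene Ntf5, which encodes neurotrophin-4, was well above background in the hippocampus alone, where it differed by 0.03 between treatments.

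**Figure D2:**
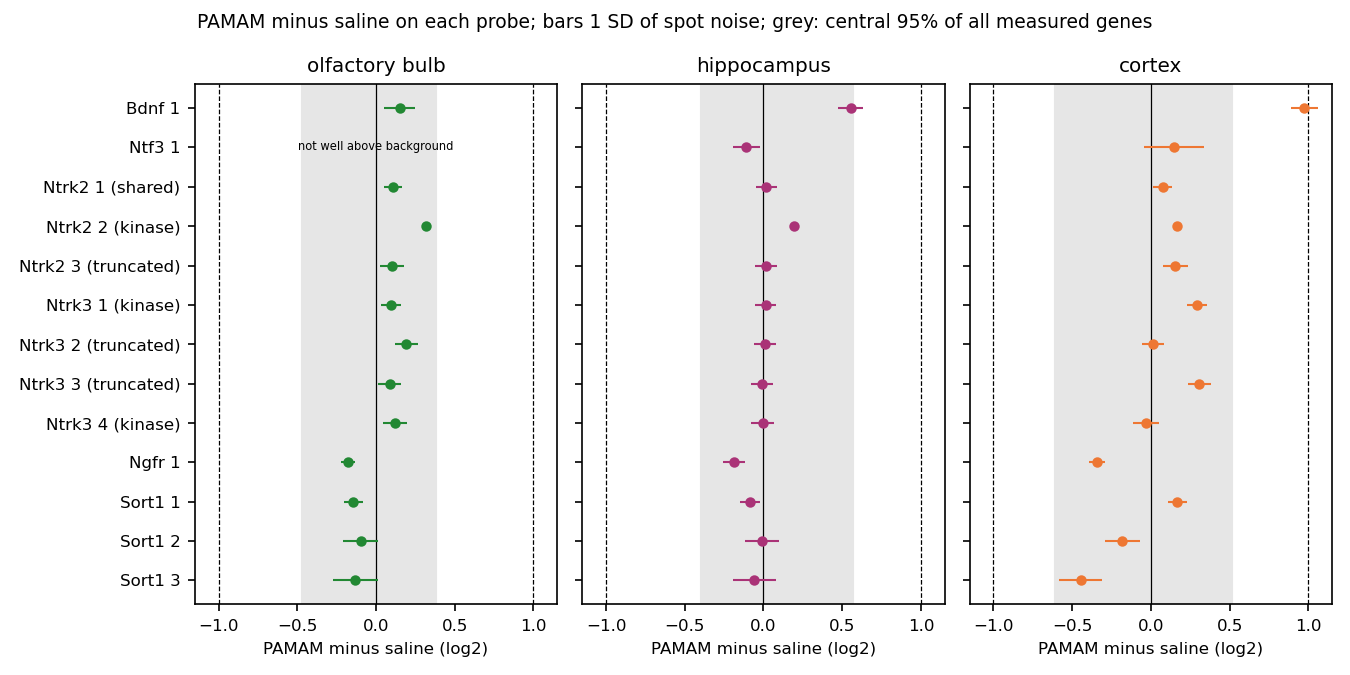
PAMAM minus saline difference (log2) of each probe in the 3 regions, with bars of 1 SD of spot noise, dashed lines at 2-fold and grey bands over the central 95% of all measured genes. Bdnf lies outside the band in the cortex (0.97), and the Sort1 probes separate there, from 0.17 to -0.45.

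Ntrk2 was read by 3 probes, and they separated the regions by receptor form. For probe 2, which reads the kinase form, olfactory bulb levels were 2.60 with saline and 2.91 with PAMAM, hippocampus levels 3.0 and 3.19, and cortex levels 3.49 and 3.66. For probe 3, which reads the truncated form, the levels in the same order of arrays were 1.69 and 1.79, 1.62 and 1.64, and 1.33 and 1.49. The kinase probe thus climbed from the olfactory bulb through the hippocampus to the cortex, while the truncated probe was lowest in the cortex. Probe 1, which reads both forms, had olfactory bulb levels of 4.07 and 4.18, hippocampus levels of 3.78 and 3.80 and cortex levels of 3.71 and 3.79.

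From olfactory bulb to cortex on the saline arrays, the kinase probe was higher by 0.89 (0.02) and the truncated probe differed by -0.35 (0.08). The gap between these differences was 1.25 (0.08) with saline and 1.04 (0.08) with PAMAM. From hippocampus to cortex the same gap was 0.78 and 0.61, and from olfactory bulb to hippocampus 0.47 and 0.43. The shared and the truncated probe both differed by -0.35 from olfactory bulb to cortex with saline, but at different steps. From olfactory bulb to hippocampus the shared probe differed by -0.29 (0.06) and the truncated one by -0.07 (0.07), and from hippocampus to cortex they differed by -0.06 (0.06) and -0.29 (0.07). The gap had the same sign in all 6 comparisons of regions. A ratio within an array shows unequal change of the forms and not which form changed in amount per cell. Cell type markers also differed by region. Astrocyte markers had mean saline levels of 2.35, 2.38 and 2.08 in olfactory bulb, hippocampus and cortex, and PAMAM levels of 2.31, 2.35 and 2.16. Single astrocyte genes did not all follow this mean, as Slc1a2 rose from 2.89 in the olfactory bulb to 4.42 in the cortex with saline. Markers of neurons in general had 5.56, 6.10 and 6.25 with saline and 5.53, 6.11 and 6.26 with PAMAM. The part of the cell mix in the Ntrk2 gap was not tested.

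Between treatments the largest Ntrk2 difference was 0.31, on the kinase probe in the olfactory bulb. The kinase probe, with 10 spots per array, was higher with PAMAM in each region, by 0.31 (0.02) in the olfactory bulb and by 0.19 (0.01) and 0.16 (0.01) in hippocampus and cortex. Its noise is small, yet 956, 3315 and 4509 genes had a higher difference in these regions. The truncated probe differed by 0.10 (0.07), 0.02 (0.07) and 0.16 (0.08) and the shared probe by 0.11 (0.06), 0.02 (0.06) and 0.07 (0.06). In the hippocampus both lay well inside spot noise, so that no direction can be given for them there. The kinase probe thus exceeded the truncated one in this difference by 0.21 (0.08) in the olfactory bulb. That excess was 0.18 (0.07) in the hippocampus and 0.01 (0.08) in the cortex. These are values of a single pair of arrays each, and the difference between regions was not tested.

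**Figure D3:**
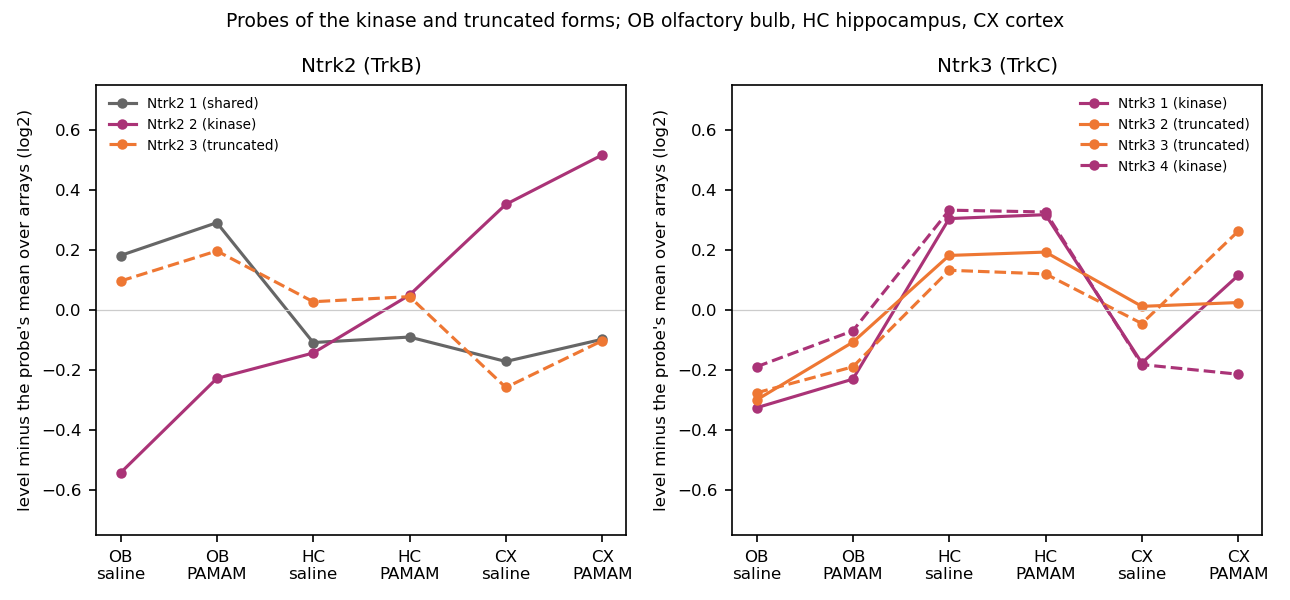
Level of each Ntrk2 (left) and Ntrk3 (right) probe minus its own mean over the 6 arrays (log2); purple lines read the kinase form, orange lines the truncated form and grey both. The Ntrk2 kinase probe runs upward from the olfactory bulb to the cortex against the truncated probe, a gap of 1.25 on the saline arrays, and the Ntrk3 probes peak together in the hippocampus on the saline arrays.

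Ntrk3 was highest in the hippocampus on the saline arrays by all 4 probes. The kinase probe nearest the 3′ end, probe 1, had olfactory bulb levels of 2.92 with saline and 3.02 with PAMAM, hippocampus levels of 3.55 and 3.57 and cortex levels of 3.07 and 3.36. Kinase probe 4 had, in the same order of arrays, 0.92 and 1.04, 1.44 and 1.43, and 0.92 and 0.89. Truncated probe 2 had 1.78 and 1.97, 2.26 and 2.27, and 2.09 and 2.10. Every saline value of the hippocampus thus stood above those of the other regions. Truncated probe 3 had 1.60 and 1.69, 2.01 and 2.0, and 1.83 and 2.14, and was the one whose highest level was on the cortex PAMAM array. From hippocampus to cortex with saline, the kinase probes differed by -0.48 and -0.51 and the truncated probes by -0.17 and -0.18, gaps of -0.30 to -0.34 between forms (spot noise 0.10 to 0.11).

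With PAMAM, all 4 Ntrk3 probes were higher in the olfactory bulb, by 0.09 to 0.19, of which only probe 2 (0.19) was beyond 2 SD of spot noise, and differed by -0.01 to 0.01 in the hippocampus. In the cortex they split by position and not by form. Probe 1 (kinase) and probe 3 (truncated), the more 3′ of each form, were higher by 0.29 (0.07) and 0.31 (0.07), while probe 4 (kinase) and probe 2 (truncated) differed by -0.03 and 0.01. Within the kinase form the 3′ probe exceeded the other by 0.32 and within the truncated form by 0.29. Over the 2243 accessions with probes at least 1000 bases apart on the genome, the same gap on that pair of arrays had a median of 0.17 and an upper quartile of 0.38. The Ntrk3 probes lie 54589 (kinase) and 1607 (truncated) bases apart on the genome, introns counted. Their distance along the transcript was not measured and can be far shorter. The part of the 3′ shift in the Ntrk3 values was not tested.

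Ngfr was lower with PAMAM in every region, by small amounts. Olfactory bulb levels were -1.54 with saline and -1.72 with PAMAM, hippocampus levels -2.40 and -2.58, and cortex levels -1.26 and -1.60. The cortex with saline was the highest and the hippocampus the lowest under both treatments. Between them, olfactory bulb saline, cortex PAMAM and olfactory bulb PAMAM followed in this order by steps of 0.12 or less. The differences between treatments were -0.18 (0.04), -0.18 (0.07) and -0.34 (0.05), with 14.6%, 12% and 9.25% of all genes lower still, and each probe value rests on 8 to 10 spots with an SD of 0.09 to 0.15. With normexp background correction the hippocampus and cortex values shrank to -0.07 and -0.21. The cholinergic and basal forebrain markers Chat, Slc18a3, Slc5a7 and Lhx8 were lower beside Ngfr in the cortex, 4 of 4 with a median of -0.44 and a summed signal of 2.50 with saline and 1.87 with PAMAM. Their mean level there was -0.72 and -1.16, against -4.82 to -4.48 on the arrays of the other regions. In the olfactory bulb and hippocampus Chat was higher with PAMAM (0.21 and 0.25) and Slc18a3 lower (-0.23 and -0.61). Slc5a7 and Lhx8 were not well above background in those regions. Olfactory ensheathing markers were lower in 6 of 6 in the olfactory bulb, with a median of -0.11. Their part in the Ngfr differences was not tested.

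Sort1 gave opposite signs on its probes in the cortex. Probe 1 had olfactory bulb levels of 3.13 with saline and 2.99 with PAMAM, hippocampus levels of 4.20 and 4.12 and cortex levels of 4.02 and 4.19. It was lowest in the olfactory bulb, and the hippocampus and cortex levels overlapped. Between treatments it differed by -0.14 (0.06), -0.09 (0.06) and 0.17 (0.06). Probe 3, which lies 5′ of probe 1 on the same accession, differed by -0.13 (0.14), -0.06 (0.14) and -0.45 (0.14), and probe 2, listed for ENSMUST00000090564, by -0.10, -0.01 and -0.18. In the cortex the 3′ probe thus exceeded the junction probe by 0.62, where the same gap was -0.01 on the olfactory bulb pair and -0.03 on the hippocampus pair. Of all genes there, 20.4% had a higher difference than probe 1 and 94.6% a higher one than probe 3. The cortex value was 0.11 with quantile normalisation for probe 1 and -0.29 with normexp for probe 3. No direction can be given for Sort1 in the cortex as a whole.

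The sorting receptors related to sortilin differed by little. Sorl1 differed by 0.11, 0.01 and 0.24 (olfactory bulb, hippocampus and cortex), Sorcs1 by 0.01, 0.26 and -0.22 and Sorcs3 by 0.28, -0.29 and 0.19. Of the 8 measured receptor genes, members included, the olfactory bulb had 5 higher, the hippocampus 4 and the cortex 6. Their medians were 0.05, -0.01 and 0.16, against -0.01, 0.00 and 0.02 over all genes, and 0 differed by 0.5 or more.

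More genes differed at least 2-fold between regions than between treatments, among the members as among all genes. This does not hold for the size of every single difference, as Bdnf from hippocampus to cortex shows below. On the saline arrays 2 of 5 member genes differed at least 2-fold between the hippocampus and the olfactory bulb (Bdnf higher in the hippocampus by 1.53 and Sort1 by 1.07), where 11.4% of all genes passed 2-fold in either direction. From olfactory bulb to cortex it was 1 of 5 (Bdnf, 1.12; 11.5% of all genes). From hippocampus to cortex it was 2 of 6 (Ngfr, 1.14, and Ntf3, -3.21), against 4.55% of all genes. Ntf3 is not among the 5 genes counted against the olfactory bulb, since it has only a bound there, as such genes were left out of the shares of all genes too. Its bounds given above were past 2-fold for the hippocampus and the cortex, under both treatments. Of the genes counted, Sort1 rests on probe 1, since probes 2 and 3 gave 0.22 and 0.62.

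On the PAMAM arrays the count was again 2 of 5 from olfactory bulb to hippocampus (Bdnf 1.93, Sort1 1.13; 11.7% of all genes). It was 2 of 5 from olfactory bulb to cortex (Bdnf 1.95, Sort1 1.20; 12% of all genes) and 1 of 6 from hippocampus to cortex (Ntf3; 3.61% of all genes). Ntf3 was again left out against the olfactory bulb. From hippocampus to cortex Ngfr was just under the threshold, at 0.98. For Bdnf the cortex was below the hippocampus by 0.41 with saline and above it by 0.01 with PAMAM. Comparisons of regions within a treatment share arrays with each other and with the comparisons of treatments, so these values are not independent.

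**Figure D4:**
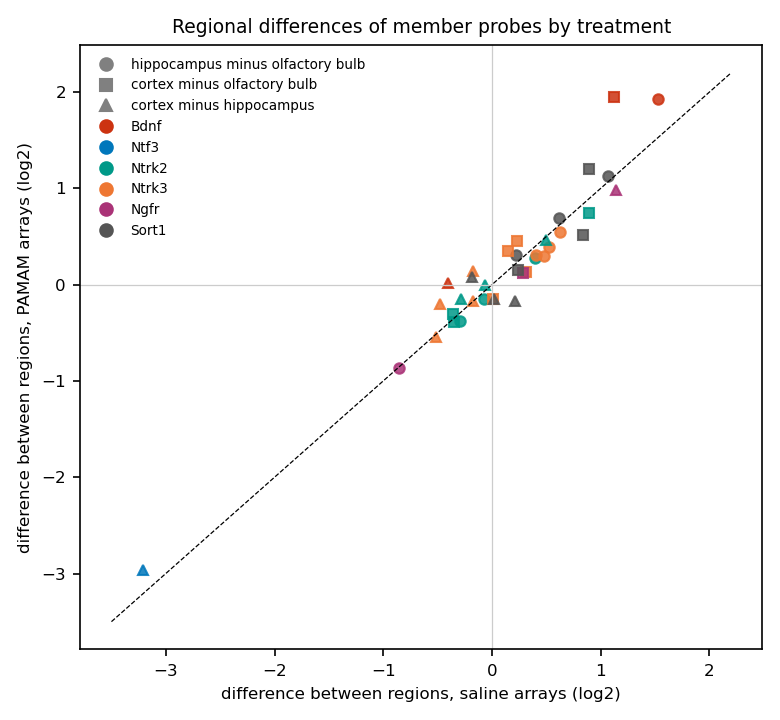
Difference between regions of each measured probe (log2) on the saline arrays (x axis) against the PAMAM arrays (y axis), with shapes for the pair of regions, colours for the gene and a dashed line of equality. Ntf3 lies at the lower left (-3.21 and -2.96), and the Bdnf points of the cortex stand above the line (1.12 against 1.95 from the olfactory bulb).

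The wider pathway was described with 8 gene lists. They were chosen with earlier results of these data known, so their counts beside the shares of all genes are a description and not a test. Targets and feedback genes of TrkB and ERK signalling, which include activity-dependent genes also driven by other inputs, differed by region. In the olfactory bulb 13 of 27 measured genes were higher and 14 lower (median -0.06, all genes -0.01). The early-response genes Junb (-1.36), Arc (-1.11) and Fos (-1.04) were at least 2-fold lower there, 3 of 27 against 0.258% of all genes past 2-fold in either direction. In the hippocampus 20 were higher and 7 lower (median 0.29, all genes 0.00), with the activin subunit gene Inhba at 1.18 and the corticotropin-releasing hormone gene Crh at 1.23 (2 of 27 past 2-fold, 0.649% of all genes). In the cortex 23 of 26 were higher (median 0.25, all genes 0.02), with Inhba at 1.30, the prostaglandin synthase gene Ptgs2 at 1.06 and the pentraxin gene Nptx2 at 1.05 (3 of 26, 0.768% of all genes).

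Genes of that list did not all share the sign of Bdnf. In the cortex Fos differed by -0.32 and Junb by -0.58, and in the hippocampus Fos differed by -0.36. Bdnf itself, at 0.97 in the cortex, had a smaller difference than Inhba, Ptgs2 and Nptx2. The choroid plexus, meningeal and 3′ shifts given above apply to the same pairs of arrays, and their part in these values was not tested.

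**Figure D5:**
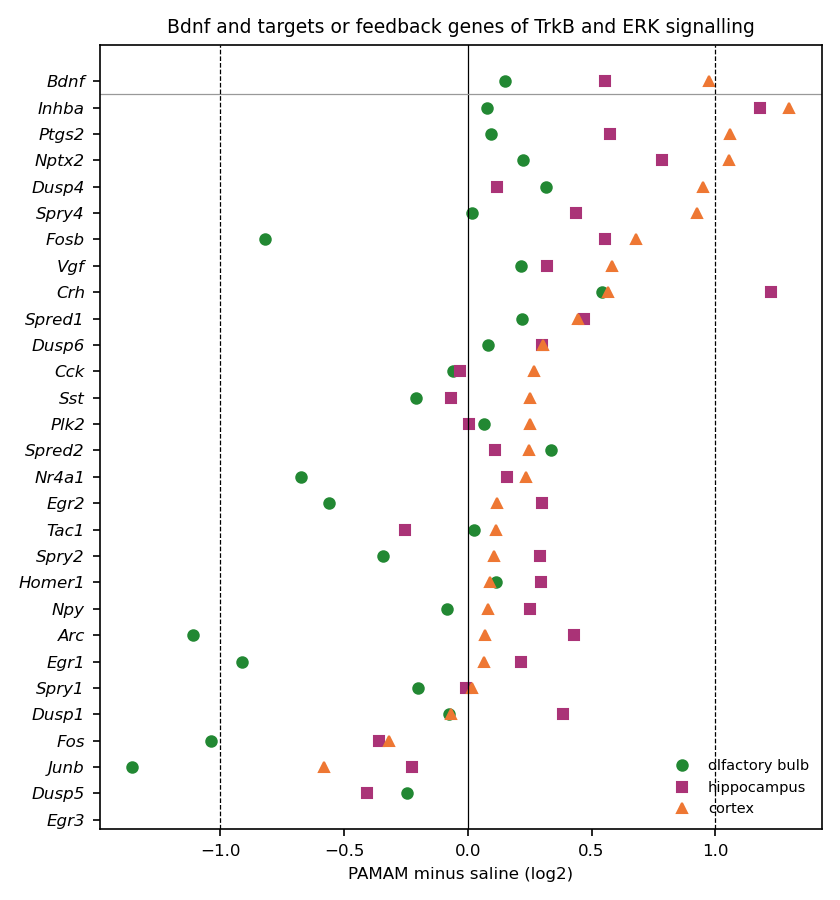
PAMAM minus saline difference (log2) of Bdnf (top) and of the measured targets and feedback genes of TrkB and ERK signalling in the 3 regions, 1 pair of arrays per symbol, with dashed lines at 2-fold and genes sorted by the cortex value; Egr3 has no symbol because it was not measured on both arrays of a pair. In the olfactory bulb Junb, Arc and Fos lie beyond 2-fold on the lower side, and in the cortex Inhba, Ptgs2 and Nptx2 beyond it on the upper side.

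Among genes that release or cut neurotrophins, the prohormone convertase gene Pcsk1 was higher in each region, by 0.38, 1.02 and 0.48 (olfactory bulb, hippocampus and cortex). It was the single gene of this list past 2-fold, 1 of 15 measured in the hippocampus, where 0.649% of all genes passed. The convertase genes Furin and Pcsk5 differed by 0.45 and 0.57 in the cortex. The list's medians were -0.03, -0.00 and 0.10 over 16, 15 and 15 measured genes, with 5, 7 and 11 higher, beside medians of -0.01, 0.00 and 0.02 over all genes.

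Transcription factors and cofactors that act on the Bdnf gene had medians of 0.02, 0.06 and -0.01 over 19 genes each, and 10, 14 and 9 were higher. Npas4, an activity-dependent factor, was lower in every region, by 1.13 on the log2 scale in the olfactory bulb, with -0.63 in the hippocampus and -0.41 in the cortex. Crem, of the CREB family, differed by 0.30, 0.34 and 0.27, and Mef2c by 0.48 in the hippocampus and -0.46 in the cortex. None of these except Npas4 in the olfactory bulb reached 2-fold (1 of 19 there, against 0.258% of all genes), by the difference of 1 pair of arrays each.

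Co-receptors and adaptors had medians of -0.03, 0.03 and 0.08 over 22, 21 and 21 genes. Lingo1, a partner of p75NTR at the Nogo receptor, differed by 0.67 in the cortex, the docking protein gene Gab2 by -0.58 in the olfactory bulb and Traf6, which binds p75NTR, by -0.46 in the cortex. Gab2 was dim in the olfactory bulb, at levels of -4.38 with saline and -4.96 with PAMAM. It was not well above background in the hippocampus or the cortex. Downstream kinases had medians of -0.02, -0.00 and 0.06 over 27 genes, with the ribosomal S6 kinase gene Rps6ka3 at 0.66 in the hippocampus and -0.33 in the cortex. The other trophic factors, of the GDNF and CNTF families, had medians of 0.01, 0.13 and 0.06 over 18, 15 and 15 genes. Manf, a trophic factor of the endoplasmic reticulum placed in that list, differed by 0.38, 0.71 and 0.50, and the GDNF receptor gene Ret by 0.60 in the hippocampus and -0.31 in the cortex.

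Genes with the most similar course over the 6 arrays were found by the root mean square distance between mean-centred levels, among 21095 genes well above background on all arrays, for members whose levels spanned at least 1 on the log2 scale. For Bdnf (span 2.10) these were an intergenic noncoding RNA probe for chr5:22887983-22939658 (distance 0.15), Serinc2 (0.17) and a similar probe for chr14:55671783-55680316 (0.18). Serinc2 had levels of -1.53, -1.43, 0.38, 0.79, -0.02 and 0.85 over olfactory bulb, hippocampus and cortex, saline before PAMAM in each, and was thus also highest on the hippocampus and cortex PAMAM arrays. For Ngfr (span 1.33) they were Tlr12 (0.10), the transcript ENSMUST00000134007 (0.10) and Pcdh7 (0.11). For Sort1 probe 1 (span 1.21) they were Uhmk1 (0.03), Cdkl2 (0.04) and Adgrb2 (0.04). With 6 arrays, many genes can lie this close by their region alone. The brightest probes of Ntrk2 and Ntrk3 spanned 0.46 and 0.64, under that limit, and Ntf3 was not well above background on all arrays.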

How the data were processed

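RNA was labelled with Cy3 by Agilent's one-colour protocol and hybridised to 1 array per group, per the labels' protocols. The scanner output that the authors deposited gives the intensity of each spot on a linear scale, made with Feature Extraction 10.7.3.1 on array design 028005 (build mm9), per the file headers. A second deposited table holds log2 values and equals the values used here centred by probe (largest residual 0.0233 over 29553 probes).

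Log2 of the background-corrected processed signal was taken, outlier spots were dropped, the array's 75th percentile was subtracted and spots of a probe were averaged (numpy 2.4.6, pandas 2.3.3). A gene is its brightest probe. It counted as measured where both arrays of a pair had it well above background and unsaturated, and as different from 1 on the log2 scale. Symbols were updated through RefSeq accessions for 27229 probes. With 1 array a group no difference within a region was tested, and treatment over the regions was fitted with limma, region as a block. The number of arrays limits the precision. Nothing says whether the pooled experiments or the regions shared mice. The calculations were tested on simulated data.

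Alternatives were normexp background (limma 3.58.1, offset 50), quantile normalisation, the median of detected probes, outlier spots kept, the deposited table, brighter probes only, and the mean over a gene's probes. The 3′ comparison and the fit over regions were chosen after seeing the data. Genes named were all member probes, list genes past 2-fold or otherwise among the 3 highest or lowest of a list in a region, and the 3 nearest courses per member; a few lower ranks are named beside them. The members and lists were chosen with earlier results of these data known. Some genes of the pathway lists are not reported here.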

Additional observations from a re-analysis of the deposited data

Results flagged for a closer look

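Sort1 probe 1 differed between PAMAM and saline in opposite directions in the olfactory bulb (-0.14) and the cortex (0.17), each by more than 2 SD of spot noise, so that the cortex difference exceeded the olfactory bulb one by 0.31. This difference between regions was not tested. Probe 3 of the same accession was lower in the cortex (-0.45), where 3′ probes exceeded 5′ probes by a median of 0.17 over 2243 accessions.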

How the results depend on the processing

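The Bdnf difference between PAMAM and saline ran from 0.11 to 0.16 in the olfactory bulb, 0.53 to 0.56 in the hippocampus and 0.89 to 1.02 in the cortex over normexp background, quantile normalisation, outlier spots kept, the median of detected probes and the deposited table. Counts of member genes at least 2-fold different moved near the threshold. Between PAMAM and saline in the cortex the count was 1 in place of 0 with the median of detected probes and with the deposited table. With quantile normalisation it was 1 in place of 2 from olfactory bulb to hippocampus under saline and under PAMAM and from olfactory bulb to cortex under PAMAM, and 2 in place of 1 from hippocampus to cortex under PAMAM. With the mean over all probes of a gene it was 1 in place of 2 in those first 3 comparisons. With normexp it was 0 in place of 1 from olfactory bulb to cortex and 1 in place of 2 from hippocampus to cortex under saline, and with brighter probes only 1 in place of 2 in the latter, since dimmer genes are then left out. The gap of the Ntrk2 kinase over the truncated probe from olfactory bulb to cortex under PAMAM was 0.92 with quantile normalisation, against 1.04. The cause of these shifts was otherwise not tested.

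Over single probes, 175 of 190 alternative values between treatments and 304 of 370 between regions stayed within spot noise, as did 223 of 225 for kinase minus truncated probes. Signs changed in 8, 15 and 3 of them, for values up to 0.03, 0.15 and 0.01 in size. Part of this agreement was fixed in advance, so these counts are a weak check. The deposited table holds the same values centred by probe, and keeping outlier spots could change Ngfr alone among the members. Scaling by the median shifts a whole array and cancels in kinase minus truncated probes. Only normexp background and quantile normalisation could move those gaps appreciably. List medians kept within 0.1 in 165 of 168, and 11 changed sign. No replicate numbers pair the arrays beyond region: each group has 1 array, and the fit with region as a block, the one pairing the design allows, is given with Bdnf above (adjusted p = 0.649 by limma). Signal over background limits Ntf3 in the olfactory bulb and Ntf5 outside the hippocampus.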
